A study of Arabidopsis thaliana with 12 samples.

Results

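Whole leaves of the Arabidopsis thaliana quadruple mutant abf1/2/3/4 were compared with wild-type leaves, both 4 h after a spray of 50 µM abscisic acid (ABA). The comparison rested on 4 of the 12 libraries of the series: 2 from mutant leaves with ABA and 2 from wild-type leaves with ABA. All plants were of the Col-0 strain, 5 to 6 weeks old, and grown at 22 °C under days with 12 h of light. A further 4 leaf libraries, 2 from mutant and 2 from wild-type leaves that received the ethanol vehicle (control), showed which genotype differences were present without added ABA. The remaining 4 libraries, from wild-type guard cell preparations with ABA or vehicle, also entered the fit. They helped estimate the spread and took part in the low-count filter and the scaling factors. The labels call the 2 libraries of each group biological replicates. They do not give the mutant alleles, where in the genes they lie, or whether more than 1 mutant line was used.

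ABA is the hormone through which plants answer drought, salt and cold, and which closes stomata and slows growth. It binds receptors of the PYR/PYL family, which then hold back the clade A protein phosphatases (PP2Cs) that keep SnRK2 kinases inactive. Released SnRK2 kinases phosphorylate the ABF proteins, basic leucine zipper transcription factors that bind the ABA-responsive element (ABRE), whose core is ACGTG, in the promoters of stress genes. ABF2, ABF3 and ABF4 are known as the main leaf members, and ABF1 as a further one.

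The promoters of 5 genes show what such sites look like in genes at both ends of the comparison. Each sequence is the 250 bases before the annotated gene start in RefSeq's TAIR10.1 assembly, read on the gene's own strand from 5′ to 3′. Capitals mark ACGTG or its reverse complement CACGT, and overlapping matches were joined. RD29B, LEA7 and RAB18 encode proteins of stressed or drying tissue and were lower in the mutant. EXPA8, a cell wall expansin, and GER3, a germin-like protein, were higher.
RD29B (chr5:21236771-21237020, + strand): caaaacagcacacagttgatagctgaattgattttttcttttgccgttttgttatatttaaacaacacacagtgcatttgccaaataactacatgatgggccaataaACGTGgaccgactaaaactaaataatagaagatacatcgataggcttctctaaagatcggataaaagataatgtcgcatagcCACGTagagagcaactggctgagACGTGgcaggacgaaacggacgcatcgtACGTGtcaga
LEA7 (chr1:19619474-19619723, + strand): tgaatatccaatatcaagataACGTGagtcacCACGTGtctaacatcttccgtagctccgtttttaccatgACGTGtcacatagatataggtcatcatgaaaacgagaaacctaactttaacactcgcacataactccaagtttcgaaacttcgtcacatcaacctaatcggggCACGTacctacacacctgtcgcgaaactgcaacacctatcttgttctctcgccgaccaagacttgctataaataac
RAB18 (chr5:26519448-26519697, - strand): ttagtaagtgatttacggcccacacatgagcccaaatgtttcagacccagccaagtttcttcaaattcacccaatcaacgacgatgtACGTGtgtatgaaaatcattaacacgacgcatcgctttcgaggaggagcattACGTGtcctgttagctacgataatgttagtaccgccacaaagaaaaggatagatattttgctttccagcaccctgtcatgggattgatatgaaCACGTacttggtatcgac
EXPA8 (chr2:16950706-16950955, - strand): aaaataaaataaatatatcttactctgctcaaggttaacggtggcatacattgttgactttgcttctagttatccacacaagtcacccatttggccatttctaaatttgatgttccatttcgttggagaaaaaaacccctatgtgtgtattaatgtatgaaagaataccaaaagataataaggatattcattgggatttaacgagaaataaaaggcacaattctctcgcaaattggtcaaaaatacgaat
GER3 (chr5:6976037-6976286, - strand): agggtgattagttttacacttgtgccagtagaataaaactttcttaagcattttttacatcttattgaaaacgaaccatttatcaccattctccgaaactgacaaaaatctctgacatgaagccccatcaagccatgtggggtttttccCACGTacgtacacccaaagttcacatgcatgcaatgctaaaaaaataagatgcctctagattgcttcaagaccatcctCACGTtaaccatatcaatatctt
RD29B and LEA7 each held 4 such sites, RAB18 3, GER3 2 and EXPA8 0. A match is a string of letters and does not show that a factor binds there.

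Levels are given as normalised read counts, as cpm of the scaled library total, first the libraries of mutant leaves and then those of wild-type leaves, in replicate order. Library totals with ABA were 45139650 and 26351329 counts in mutant leaves and 32807333 and 47116819 counts in wild-type leaves. A gene was called where edgeR's quasi-likelihood test gave a Benjamini-Hochberg adjusted p under 0.05 over 22341 tested genes, and every adjusted p below comes from that test. Log2 fold changes are mutant over wild type, with their standard error (SE). On the first principal component of the 8 leaf libraries, which held 66.2% of the variance, the mutant libraries with ABA lay at -5.91 and -2.35. The wild-type libraries with ABA lay at 114.4 and 120.5, the mutant controls at -56.5 and -63.4, and the wild-type controls at -49.4 and -57.4. Of genes averaging at least 100 counts, 0.122% differed over 2-fold between the 2 mutant libraries with ABA and 0.455% between the 2 wild-type libraries with ABA. That share was 2.07% between the 2 mutant control libraries, which stood further apart than any other pair, and 0.292% between the wild-type controls.

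The targeted genes were examined first. ABF3 had 13.3 and 13.5 cpm in mutant leaves with ABA, against 546 and 549 cpm in wild-type leaves, a log2 fold change of -5.36 (SE 0.11, adjusted p = 1.44e-10). ABF4 had 2.798 and 2.4003 cpm in mutant leaves, against 86.2 and 86.7 cpm in wild-type leaves (-5.04, SE 0.10, adjusted p = 1.27e-10). Both genes were thus far lower in the mutant in every library, although a share of 0.29 of the exon bases of ABF4 lies inside another locus. ABF2 had 11.6 and 11.8 cpm in mutant leaves, against 141 and 145 cpm in wild-type leaves (-3.62, SE 0.07, adjusted p = 1.44e-10). ABF1 had 48.2 and 47.2 cpm in mutant leaves, against 124 and 137 cpm in wild-type leaves, and was the least reduced (-1.45, SE 0.09, adjusted p = 3.11e-07). Reads from the 4 genes remained in the mutant, and the counts, taken over whole loci, do not show whether they come from intact messages. At control, where ABF3 had 2.86 and 2.39 cpm in mutant leaves and 19.9 and 16.7 cpm in wild-type leaves, the 4 genes were also lower in the mutant.

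**Figure D1:**
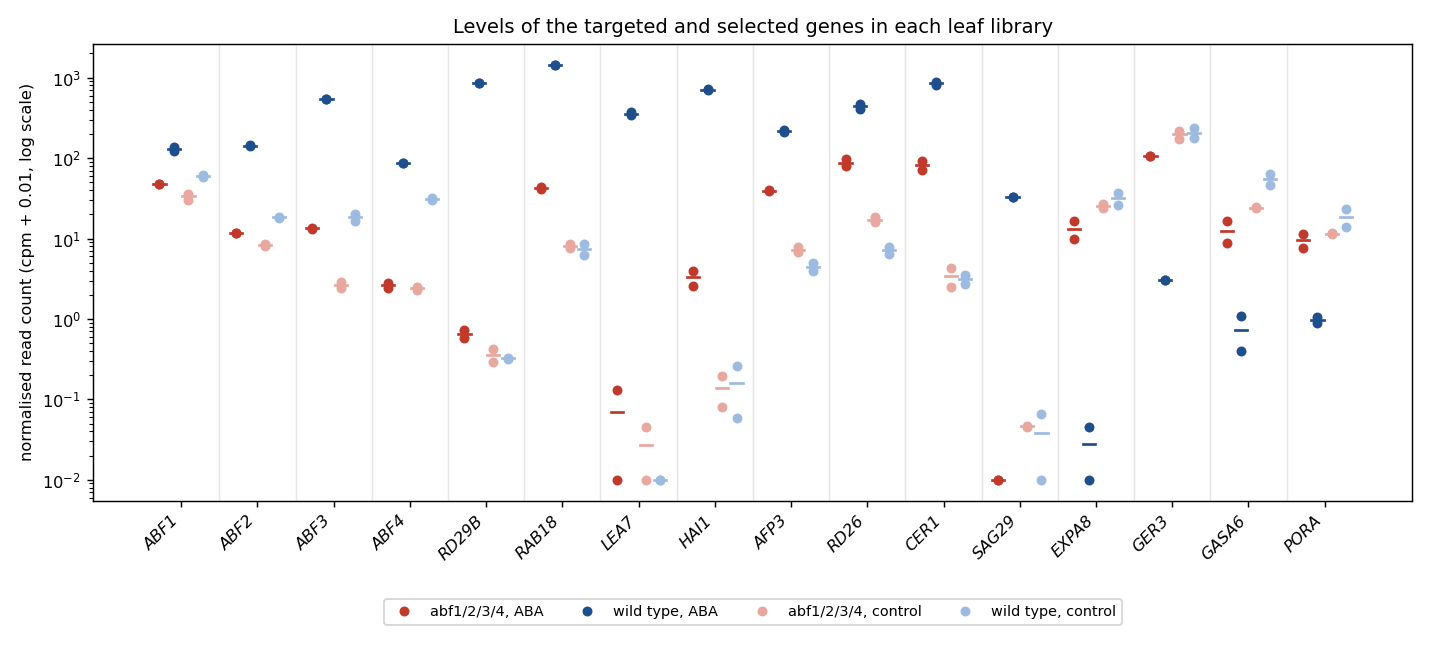
Normalised read counts (cpm + 0.01, log10 axis) of 16 genes in each leaf library, with 1 point per library and a bar at the mean of 2. In each gene the groups run from mutant with ABA and wild type with ABA to mutant control and wild-type control, and RD29B reached 860.5 and 853 cpm only in wild-type leaves with ABA.

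With ABA, 12799 of 22341 tested genes (57.3%) were called between the genotypes, 6865 (30.7%) higher and 5934 (26.6%) lower in mutant leaves. Of these, 4285 (19.2%) differed by 1 or more on the log2 scale, 2356 (10.5%) higher and 1929 (8.63%) lower. The libraries of the 2 genotypes did not overlap in 78.9% of all tested genes, called or not. The median absolute difference over all genes was 0.46 on the log2 scale with ABA, against 0.25 at control. Which direction held more genes depended on the scaling and on the libraries fitted. With TMM factors over all 12 libraries it was 6865 higher to 5934 lower. Fits of the 8 leaf libraries alone gave 5767 to 5971, and of only the libraries compared 5984 to 6199. It was 6089 to 6649 with RLE factors and 8308 to 4772 with total-count scaling, which moved the median of all genes by 0.12. Changes are therefore relative to the TMM factors of all 12 libraries, under which that median was 0.05. In whole leaves, fewer cells of a type and less RNA per cell cannot be told apart.

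The lower side was led by genes that were near 0 in the mutant and abundant in wild-type leaves with ABA. SAG29, a sucrose exporter of the SWEET family, had 0 and 0 cpm in mutant leaves, against 32.9 and 33.3 cpm in wild-type leaves, which is at least 345-fold lower when the mutant is set at 3 counts per library. TSPO, a membrane protein induced by ABA and salt, had 0.0239 and 0 cpm in mutant leaves, against 87.9 and 99.9 cpm in wild-type leaves, at least 979-fold lower. In neither gene did any mutant library exceed 1 count. Others among the 12 genes with the largest falls were LEA7, LEA18, LEA4-5, RD29B, AT3G17520, AT3G02480, DAA1 and AT5G15500. AT3G02480 had 0.0478 and 0.280 cpm in mutant leaves, against 256 and 278 cpm in wild-type leaves (-10.90, SE 0.39, adjusted p = 6.58e-09). Both remaining genes, MRD1 and AT1G07887, overlap each other and were also low in the mutant at control.

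The higher side was led by EXPA8, GER3, AT3G55646 and PRE1. EXPA8 had 16.7 and 9.76 cpm in mutant leaves, against 0.0356 and 0 cpm in wild-type leaves, at least 147-fold higher. GER3 had 107 and 107 cpm in mutant leaves, against 3.06 and 3.01 cpm in wild-type leaves (5.14, SE 0.18, adjusted p = 6.68e-09). PRE1, a small helix-loop-helix protein that promotes cell elongation, had 15.9 and 13.6 cpm in mutant leaves, against 0.570 and 0.535 cpm in wild-type leaves (4.74, SE 0.21, adjusted p = 3.30e-08). At control EXPA8 stood at 26.9 and 24.2 cpm in mutant and 25.9 and 37.1 cpm in wild-type leaves, and GER3 at 220.4 and 174 cpm in mutant and 176 and 239 cpm in wild-type leaves, so that for both the wild-type libraries with ABA were the low ones. BT2, a scaffold protein of the BTB family, had 47.9 and 90.3 cpm in mutant leaves, against 2.31 and 4.06 cpm in wild-type leaves (4.38, SE 0.46, adjusted p = 1.34e-05). Its genotypes did not overlap, which also held for 78.9% of all tested genes. GASA6, a gibberellin-regulated peptide, completed the named members of the 12 genes with the largest rises, with AT3G55646, AT5G35935, AT3G18773, AT3G18775, AT3G17640, AT5G19120 and AT4G38860 identified by locus. AT5G35935 was also higher in the mutant at control, with 19.7 and 17.4 cpm in mutant and 3.33 and 0.0247 cpm in wild-type leaves.

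**Figure D2:**
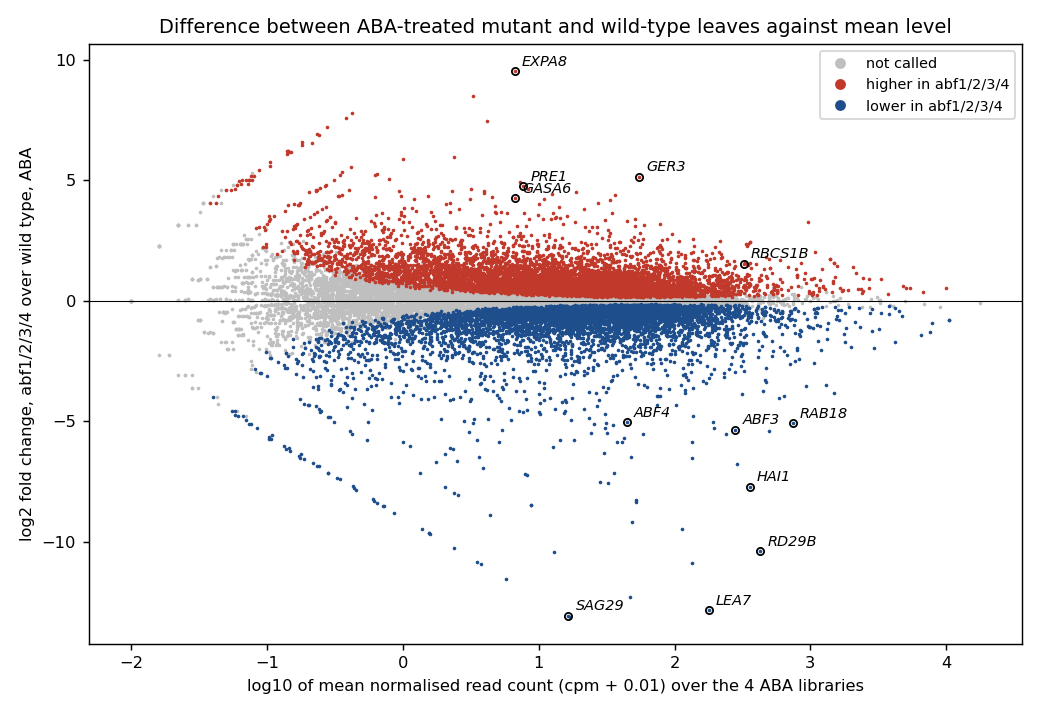
Log2 fold change of mutant over wild-type leaves with ABA (y axis) against log10 of the mean normalised read count (cpm + 0.01) over the 4 ABA libraries (x axis), for 22341 genes. Red points were called higher and blue points lower in the mutant, grey points were not called, and the largest fitted values, such as those of SAG29 and EXPA8, rest on groups with 3 counts or fewer.

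Selected genes were then set in 44 lists by function, which were chosen with earlier results of these data known. The shares below describe these lists and are no independent support for a function. Read against 26.6% lower and 30.7% higher among all tested genes, the lists of clade A PP2C, AFP, LEA and dehydrin genes held only members called lower, while those of chlorophyll and glucosinolate synthesis held none called lower.

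**Figure D3:**
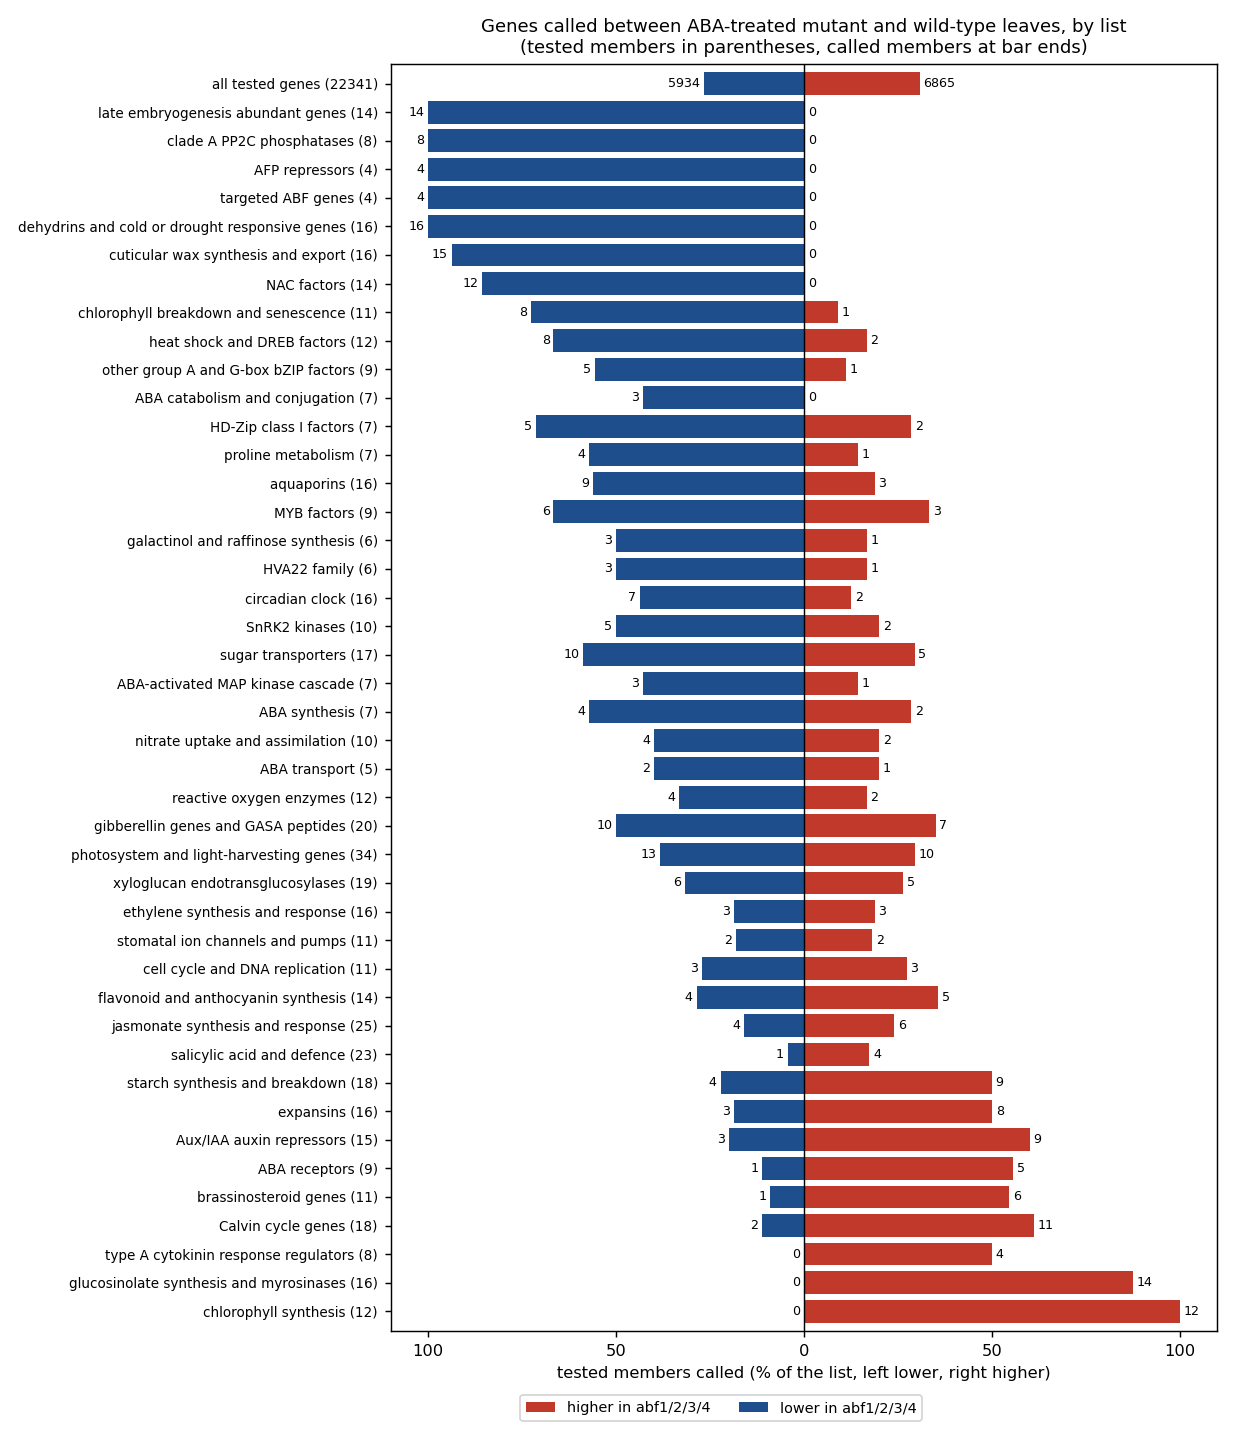
Share of the tested members of each list that were called lower (bars to the left, blue) or higher (bars to the right, red) in mutant leaves with ABA, in percent, for the lists with at least 4 tested members, with called members counted at the bar ends and the number tested in parentheses. The bar of all tested genes (5934 lower, 6865 higher) stands at the top for reference.

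At the head of the pathway, genes of ABA receptors were mostly higher in mutant leaves and genes of the phosphatases they inhibit were lower. Of 9 tested receptor genes, 5 were higher and 1 lower. PYL4 had 4.83 and 5.92 cpm in mutant leaves, against 1.32 and 0.973 cpm in wild-type leaves (2.24, SE 0.25, adjusted p = 1.95e-05). PYL8 had 42.5 and 47.3 cpm in mutant leaves, against 15.9 and 17.02 cpm in wild-type leaves (1.44, SE 0.08, adjusted p = 9.46e-08). Neither overlapped between genotypes, which also held for 78.9% of all tested genes. PYL6 had 0 and 1 counts in mutant leaves and 0 and 2 counts in wild-type leaves with ABA, too few to compare, against 6.17 and 10.03 cpm in mutant and 14.7 and 13.5 cpm in wild-type leaves at control. All 8 tested clade A PP2C genes were lower, with a median log2 fold change of -3.08. HAI1 had 3.99 and 2.56 cpm in mutant leaves, against 699.9 and 723 cpm in wild-type leaves (-7.71, SE 0.21, adjusted p = 9.78e-10). PP2CA had 61.8 and 62.3 cpm in mutant leaves, against 836 and 831 cpm in wild-type leaves (-3.75, SE 0.09, adjusted p = 5.99e-10). ABI1, the phosphatase first found through a mutant that does not sense ABA, had 133 and 140.5 cpm in mutant leaves, against 639 and 746 cpm in wild-type leaves (-2.34, SE 0.09, adjusted p = 9.05e-09). Genotypes did not overlap in any of the 3 phosphatase genes either, to be read against the same share.

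The AFP proteins, which repress ABI5 and the ABFs, showed the same direction: all 4 of their genes were lower. AFP1 had 4.09 and 5.24 cpm in mutant leaves, against 257 and 274 cpm in wild-type leaves (-5.85, SE 0.25, adjusted p = 2.81e-08). AFP3 had 40.1 and 39.0 cpm in mutant leaves, against 223 and 213 cpm in wild-type leaves (-2.46, SE 0.12, adjusted p = 4.88e-08). Among the SnRK2 kinases 5 of 10 were lower and 2 higher. OST1, the kinase best known from guard cells, had 16.9 and 15.9 cpm in mutant leaves, against 29.5 and 29.9 cpm in wild-type leaves (-0.85, SE 0.07, adjusted p = 2.93e-06). SNRK2.8 had 13.2 and 14.9 cpm in mutant leaves, against 7.05 and 7.27 cpm in wild-type leaves, and was higher (0.97, SE 0.18, adjusted p = 7.58e-04). Of the genes of the ABA-activated MAP kinase cascade, 3 of 7 were lower and 1 higher, and MAPKKK18, with 1.51 and 1.56 cpm in mutant leaves, against 60.5 and 59.7 cpm in wild-type leaves, differed most (-5.29, SE 0.10, adjusted p = 1.27e-10).

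Genes that make and break down ABA were also lower more often than higher. Of 7 synthesis genes 4 were lower and 2 higher. The call of 1 of the higher ones, ABA4, was lost under some alternatives, among them DESeq2 (0.26) and the GC and length offset (0.11). AAO3, which catalyses the last step of synthesis, had 43.1 and 43.8 cpm in mutant leaves, against 89.7 and 100.2 cpm in wild-type leaves (-1.13, SE 0.08, adjusted p = 1.04e-06). ABA2, which acts 1 step earlier, had 22.9 and 21.6 cpm in mutant leaves, against 8.15 and 7.42 cpm in wild-type leaves, and was higher (1.52, SE 0.11, adjusted p = 6.59e-07), and 0.40 of its exon length is shared with another locus. NCED3, the dioxygenase that controls the rate of stress-induced synthesis, had 28.2 and 24.0 cpm in mutant leaves, against 35.0 and 53.3 cpm in wild-type leaves (-0.76, SE 0.22, adjusted p = 0.0131). Its call was lost without wild-type replicate 2 (-0.42) and without mutant replicate 2 (-0.65). Of 7 genes of ABA breakdown and conjugation, 3 were lower and none higher, all 3 being 8′-hydroxylases of the CYP707A family. CYP707A1 had 6.74 and 5.44 cpm in mutant leaves, against 55.9 and 68.2 cpm in wild-type leaves (-3.33, SE 0.13, adjusted p = 1.08e-08). For the exporter gene ABCG25 there were 13.8 and 16.1 cpm in mutant leaves, against 42.8 and 40.6 cpm in wild-type leaves (-1.49, SE 0.08, adjusted p = 8.85e-08). Of 5 ABA transport genes 2 were lower and 1 higher, and their median of -0.52 turned to 0.48 without wild-type replicate 2.

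Of 9 other bZIP genes of this group and of the G-box factors, 5 were lower and 1 higher, and the call of the higher one, AREB3, was lost in 8 alternatives. ABI5, the bZIP factor that arrests germinating seeds, had 5.74 and 5.28 cpm in mutant leaves, against 18.9 and 22.2 cpm in wild-type leaves (-1.89, SE 0.15, adjusted p = 1.92e-06). GBF3 had 8.66 and 10.7 cpm in mutant leaves, against 108 and 124 cpm in wild-type leaves (-3.59, SE 0.19, adjusted p = 1.10e-07).

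Genes of protective proteins were lower in both main lists. Of 17 listed genes of late embryogenesis abundant (LEA) proteins, which protect drying cells, 14 passed the low-count filter, and all 14 were lower. Their median log2 fold change was -7.15, or -5.45 with the 8 genes at 3 counts or fewer in both mutant libraries set at 3 counts per library. Those 8 passed the filter only through groups where they were higher, so their direction is no independent support. LEA7 had 0 and 0.120 cpm in mutant leaves, against 369 and 346 cpm in wild-type leaves, 3730.4-fold lower when the mutant is set at 3 counts per library. LEA4-5 had 0.359 and 0.240 cpm in mutant leaves, against 212 and 238 cpm in wild-type leaves (-9.47, SE 0.25, adjusted p = 9.37e-10). LEA14 had 289 and 314 cpm in mutant leaves, against 1814 and 1803 cpm in wild-type leaves (-2.58, SE 0.11, adjusted p = 1.79e-08). LEA7 and LEA4-5 were near 0 in the mutant, while LEA14 was not.

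All 16 tested dehydrin and cold or drought genes were lower as well, with a median of -2.12. RD29B had 0.574 and 0.720 cpm in mutant leaves, against 860.5 and 853 cpm in wild-type leaves (-10.40, SE 0.20, adjusted p = 1.27e-10). RAB18, a dehydrin, had 41.6 and 43.4 cpm in mutant leaves, against 1449 and 1433 cpm in wild-type leaves (-5.08, SE 0.15, adjusted p = 1.72e-09). RD29A, which lies beside RD29B in the genome, had 3305 and 3829 cpm in mutant leaves, against 9404 and 9588 cpm in wild-type leaves (-1.41, SE 0.14, adjusted p = 1.15e-05). RD29B was near 0 in both mutant libraries, while RD29A was abundant there. At control RD29A stood at 878 and 666 cpm in mutant and 517 and 438 cpm in wild-type leaves, and was higher in the mutant (0.69, SE 0.14, adjusted p = 0.00588). KIN1 had 133 and 158 cpm in mutant leaves, against 1674 and 1736 cpm in wild-type leaves (-3.55, SE 0.28, adjusted p = 1.66e-06), although reads of KIN1 and its near copy KIN2 may be split between them. LTI30, a cold-induced dehydrin, had 209.7 and 252 cpm in mutant leaves, against 1291 and 1342 cpm in wild-type leaves (-2.51, SE 0.17, adjusted p = 4.81e-07). Of 6 tested HVA22 genes 3 were lower and 1 higher, and of the 2 oleosin and caleosin genes tested 1 was lower and 1 higher, the higher call being lost under some alternatives.

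Genes for compatible solutes and for starch and sugar handling were lower or higher depending on the gene. P5CS1, which makes the first intermediate of proline, had 196 and 194 cpm in mutant leaves, against 2584 and 3019 cpm in wild-type leaves (-3.84, SE 0.20, adjusted p = 8.85e-08). GOLS2, a galactinol synthase, had 2.03 and 3.00 cpm in mutant leaves, against 122 and 107 cpm in wild-type leaves (-5.55, SE 0.28, adjusted p = 6.59e-08). In both genes each mutant library lay below each wild-type library, and 78.9% of all tested genes had no overlap between genotypes. Of 7 proline genes 4 were lower and 1 higher, and the call of the higher one, P5CR, was lost in 8 alternatives, each library left out among them. Of 6 galactinol and raffinose genes 3 were lower and 1 higher. Starch genes went mostly the other way, with 9 of 18 higher and 4 lower. BAM1, the stress-induced β-amylase, had 81.7 and 102 cpm in mutant leaves, against 310.1 and 328 cpm in wild-type leaves, and was lower (-1.80, SE 0.12, adjusted p = 4.25e-07). BAM5, another β-amylase, had 90.7 and 93.2 cpm in mutant leaves, against 9.18 and 12.1 cpm in wild-type leaves, and was higher (3.10, SE 0.45, adjusted p = 1.50e-04). PHS2, the cytosolic glucan phosphorylase, had 1231 and 1258 cpm in mutant leaves, against 566 and 568 cpm in wild-type leaves (1.13, SE 0.10, adjusted p = 4.72e-06). Of 17 sugar transporter genes 10 were lower and 5 higher. SWEET4 had 9.61 and 8.88 cpm in mutant leaves, against 129 and 156 cpm in wild-type leaves (-3.94, SE 0.13, adjusted p = 4.77e-09). SUC1, a sucrose importer, had 109 and 114 cpm in mutant leaves, against 27.1 and 28.5 cpm in wild-type leaves, and was higher (2.00, SE 0.15, adjusted p = 1.21e-06).

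Stress-related transcription factors of other families were mostly lower. Of 14 NAC genes 12 were lower and none higher, with a median of -1.18. ORE1, a promoter of leaf senescence, had 1.77 and 1.48 cpm in mutant leaves, against 23.4 and 37.2 cpm in wild-type leaves (-4.20, SE 0.25, adjusted p = 2.21e-07). RD26 had 79.3 and 96.9 cpm in mutant leaves, against 413 and 468 cpm in wild-type leaves (-2.32, SE 0.12, adjusted p = 9.91e-08), and at control it was higher in the mutant (1.265, SE 0.14, adjusted p = 2.79e-04). Of 7 class I homeodomain-leucine zipper genes 5 were lower and 2 higher. HB7 had 9.33 and 13.5 cpm in mutant leaves, against 350.1 and 389 cpm in wild-type leaves (-5.04, SE 0.17, adjusted p = 5.81e-09). HB13 had 9.76 and 11.6 cpm in mutant leaves, against 2.21 and 2.07 cpm in wild-type leaves, and was higher (2.32, SE 0.16, adjusted p = 5.68e-07). Of 9 MYB genes 6 were lower and 3 higher. MYB74 had 0.885 and 1.28 cpm in mutant leaves, against 46.2 and 48.6 cpm in wild-type leaves (-5.50, SE 0.17, adjusted p = 3.68e-09). MYB60, a guard cell factor needed for stomatal opening, had 19.0 and 20.4 cpm in mutant leaves, against 1.67 and 1.99 cpm in wild-type leaves, and was higher (3.40, SE 0.12, adjusted p = 5.49e-09). Of 12 heat shock and DREB genes 8 were lower and 2 higher. HSFA6A had 0.0239 and 0 cpm in mutant leaves, against 6.76 and 10.8 cpm in wild-type leaves, at least 91.7-fold lower. CBF3 had 38.4 and 38.5 cpm in mutant leaves, against 168 and 154 cpm in wild-type leaves (-2.07, SE 0.13, adjusted p = 3.41e-07).

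Of 16 tested genes for the waxes that seal the leaf surface, 15 were lower and none higher in mutant leaves, with a median of -1.40. CER1, which acts in making alkanes, had 91.9 and 71.5 cpm in mutant leaves, against 822 and 896 cpm in wild-type leaves, 10.5-fold lower (-3.39, SE 0.17, adjusted p = 7.78e-08). KCS3, of the family that elongates fatty acids, had 46.0 and 51.5 cpm in mutant leaves, against 332 and 356 cpm in wild-type leaves (-2.82, SE 0.14, adjusted p = 5.45e-08). WSD1, a wax ester synthase, had 3.28 and 2.76 cpm in mutant leaves, against 12.3 and 16.4 cpm in wild-type leaves (-2.24, SE 0.22, adjusted p = 8.81e-06). CER1 in the mutant was still far above its control level of 4.35 and 2.497 cpm in mutant and 2.75 and 3.46 cpm in wild-type leaves. MYB96, an activator of wax genes, was lower too, with 42.1 and 51.3 cpm in mutant leaves, against 150.3 and 192 cpm in wild-type leaves (-1.88, SE 0.13, adjusted p = 6.87e-07).

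Chlorophyll synthesis genes were higher, while the joint list of chlorophyll breakdown and senescence was mostly lower. All 12 tested genes of chlorophyll synthesis were higher in mutant leaves, with a median of 0.65, and 8 of 11 genes of chlorophyll breakdown and senescence were lower, with 1 higher and a median of -1.50. Over the alternatives 9 to 12 of the synthesis genes were higher. The joint list also holds senescence genes such as SAG13, SAG29 and SAG101, and the higher call, that of SAG101, was lost under some alternatives. PORB, a light-dependent protochlorophyllide reductase, had 1801 and 1659 cpm in mutant leaves, against 741 and 667 cpm in wild-type leaves (1.30, SE 0.10, adjusted p = 1.85e-06). PORA, of the same family, had 11.3 and 7.64 cpm in mutant leaves, against 0.890 and 1.05 cpm in wild-type leaves (3.28, SE 0.29, adjusted p = 4.02e-06). CHLI1, a subunit of magnesium chelatase, had 519 and 495 cpm in mutant leaves, against 195 and 173 cpm in wild-type leaves (1.46, SE 0.09, adjusted p = 2.45e-07). On the breakdown side, NYE1, which removes magnesium from chlorophyll, had 19.7 and 18.9 cpm in mutant leaves, against 52.3 and 67.9 cpm in wild-type leaves (-1.64, SE 0.13, adjusted p = 1.89e-06). PAO, which opens the chlorophyll ring, had 91.4 and 92.5 cpm in mutant leaves, against 275 and 326 cpm in wild-type leaves (-1.71, SE 0.09, adjusted p = 6.88e-08). SAG13, a senescence marker, had 39.9 and 42.4 cpm in mutant leaves, against 212 and 236 cpm in wild-type leaves (-2.45, SE 0.23, adjusted p = 5.05e-06). Replicates did not overlap between genotypes in any of these 6 genes, which also held for 78.9% of all tested genes.

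Photosystem genes differed in both directions, while Calvin cycle genes were mostly higher. Of 34 photosystem and light-harvesting genes, 10 were higher and 13 lower, with a median of -0.06, to be read against 30.7% higher and 26.6% lower among all tested genes. The photosystem counts changed to 12 higher and 9 lower under total-count scaling, where the median was 0.06. The median was also above 0 without mutant replicate 2 or wild-type replicate 1. PSBX, a photosystem II subunit, had 795 and 691 cpm in mutant leaves, against 1519.5 and 1438 cpm in wild-type leaves (-0.99, SE 0.09, adjusted p = 3.96e-06). PSBY, another such subunit, had 2255 and 1755 cpm in mutant leaves, against 1098 and 949 cpm in wild-type leaves, and was higher (0.97, SE 0.11, adjusted p = 2.86e-05). LHCB2.2, a light-harvesting protein, had 2998 and 2698 cpm in mutant leaves, against 2958 and 2518 cpm in wild-type leaves, with no call (0.06, SE 0.12, adjusted p = 0.702) and a sign that changed with the scaling and with single libraries left out. Of 18 Calvin cycle genes, which fix carbon dioxide, 11 were higher and 2 lower, with a median of 0.36. RBCS1A, the main small subunit of Rubisco, had 12576 and 10937 cpm in mutant leaves, against 8824 and 7378 cpm in wild-type leaves (0.54, SE 0.11, adjusted p = 0.00138). RBCS1B had 472 and 489.7 cpm in mutant leaves, against 179 and 155 cpm in wild-type leaves (1.53, SE 0.12, adjusted p = 1.40e-06), and shares near-identical sequence with RBCS2B and RBCS3B.

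Among genes of cell wall loosening, most called expansins were higher. Of 16 expansin genes 8 were higher and 3 lower, with a median of 0.94. EXPA6 had 53.9 and 53.8 cpm in mutant leaves, against 21.1 and 12.6 cpm in wild-type leaves (1.69, SE 0.20, adjusted p = 2.94e-05). EXPA16 went against its family, with 72.5 and 68.6 cpm in mutant leaves, against 342 and 306 cpm in wild-type leaves (-2.20, SE 0.15, adjusted p = 6.21e-07). Of 19 genes of xyloglucan endotransglucosylases, which cut and rejoin wall polymers, 5 were higher and 6 lower, near the shares among all genes, and the sign of their median changed in 4 alternatives. XTH31 had 6.91 and 6.24 cpm in mutant leaves, against 0 and 0.0243 cpm in wild-type leaves, at least 73.2-fold higher. XTH6 had 131 and 130.4 cpm in mutant leaves, against 30.9 and 22.8 cpm in wild-type leaves (2.29, SE 0.27, adjusted p = 3.12e-05). XTH25 had 6.82 and 7.04 cpm in mutant leaves, against 39.2 and 31.4 cpm in wild-type leaves, and was lower (-2.35, SE 0.20, adjusted p = 2.84e-06). Of 11 cell cycle genes 3 were higher and 3 lower, also near the shares among all genes.

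Aquaporin genes were mostly lower. Of 16 tested, 9 were lower and 3 higher. The lower ones were 8 plasma membrane aquaporins and TIP2;2 of the vacuolar membrane family. PIP1;4 had 103 and 105 cpm in mutant leaves, against 460.5 and 559 cpm in wild-type leaves (-2.30, SE 0.12, adjusted p = 6.73e-08). PIP1A had 105 and 109 cpm in mutant leaves, against 381 and 524 cpm in wild-type leaves (-2.08, SE 0.15, adjusted p = 8.34e-07). All 3 higher ones, DELTA-TIP, GAMMA-TIP and TIP2, belong to the vacuolar membrane family. DELTA-TIP had 291 and 218 cpm in mutant leaves, against 98.1 and 93.0 cpm in wild-type leaves (1.41, SE 0.15, adjusted p = 1.63e-05).

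Growth hormone genes were more often higher for auxin and brassinosteroid and divided for gibberellin. Of 15 Aux/IAA genes, which encode short-lived auxin repressors, 9 were higher and 3 lower, with a median of 0.66. IAA29 had 14.6 and 7.84 cpm in mutant leaves, against 1.96 and 2.31 cpm in wild-type leaves (2.3999, SE 0.30, adjusted p = 4.61e-05). IAA14 had 4.35 and 3.32 cpm in mutant leaves, against 12.0 and 8.22 cpm in wild-type leaves, and was lower (-1.37, SE 0.23, adjusted p = 4.42e-04). Of 11 brassinosteroid genes 6 were higher and 1 lower, and the receptor gene BRI1 had 133 and 119.8 cpm in mutant leaves, against 75.4 and 65.1 cpm in wild-type leaves (0.85, SE 0.08, adjusted p = 8.92e-06). Of 20 gibberellin genes 7 were higher and 10 lower. GASA6 had 16.4 and 8.72 cpm in mutant leaves, against 1.07 and 0.389 cpm in wild-type leaves (4.25, SE 0.41, adjusted p = 7.37e-06). GASA1 had 208 and 215 cpm in mutant leaves, against 52.5 and 54.2 cpm in wild-type leaves (1.99, SE 0.16, adjusted p = 2.14e-06). On the lower side, the receptor gene GID1B had 7.53 and 8.56 cpm in mutant leaves, against 23.4 and 28.0 cpm in wild-type leaves (-1.69, SE 0.13, adjusted p = 1.10e-06). GA2OX6, which inactivates gibberellin, had 7.34 and 7.76 cpm in mutant leaves, against 21.8 and 33.0 cpm in wild-type leaves (-1.87, SE 0.23, adjusted p = 3.82e-05). Of 8 type A response regulators of cytokinin 4 were higher and none lower, a count that ran from 0 to 6 over the alternatives.

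Lists of defence hormones held a smaller share of calls than the 57.3% of all genes, and the glucosinolate list a larger one. Of 23 salicylic acid and defence genes 4 were higher and 1 lower, and the number higher ran from 1 to 10 over the alternatives. PR1, the classical marker of salicylic acid, had 90.5 and 137 cpm in mutant leaves, against 84.8 and 68.3 cpm in wild-type leaves, with no call (0.57, SE 0.75, adjusted p = 0.537). NPR4, a salicylic acid receptor, had 35.6 and 39.1 cpm in mutant leaves, against 17.9 and 16.8 cpm in wild-type leaves (1.105, SE 0.12, adjusted p = 1.54e-05). Of 25 jasmonate genes 6 were higher and 4 lower, with 1 to 7 higher and 3 to 7 lower over the alternatives. Of 16 ethylene genes 3 were higher and 3 lower. The medians of the jasmonate and ethylene lists changed sign under some alternatives, among them single libraries left out. That of the salicylic acid list was 0.43 and ran from 0.24 to 0.56 over the alternatives. JAZ12, a jasmonate repressor, had 108 and 121 cpm in mutant leaves, against 249.7 and 282 cpm in wild-type leaves, and was lower (-1.21, SE 0.10, adjusted p = 1.85e-06). Glucosinolates are defence compounds of the cabbage family, and 14 of 16 genes of their synthesis and breakdown were higher, with none lower and a median of 0.64. Over the alternatives 8 to 14 of them were higher. MYB29, an activator of the pathway, had 44.98 and 43.8 cpm in mutant leaves, against 16.1 and 15.4 cpm in wild-type leaves (1.496, SE 0.24, adjusted p = 2.64e-04). BCAT4, an enzyme of its first step, had 262 and 249.3 cpm in mutant leaves, against 117 and 131 cpm in wild-type leaves (1.04, SE 0.22, adjusted p = 0.00218).

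Remaining metabolic and regulatory lists were divided. The medians of the clock and reactive oxygen lists changed sign under total-count scaling. Of 16 clock genes 7 were lower and 2 higher, and CCA1, a morning clock factor, had 15.0 and 15.4 cpm in mutant leaves, against 57.2 and 50.4 cpm in wild-type leaves (-1.82, SE 0.12, adjusted p = 3.60e-07). Of 10 nitrate genes 4 were lower and 2 higher. NIA2, the main nitrate reductase, had 188 and 208 cpm in mutant leaves, against 76.4 and 70.3 cpm in wild-type leaves, and was higher (1.43, SE 0.16, adjusted p = 2.39e-05). ASN1, an asparagine synthetase of starved and dark leaves, had 13.9 and 22.5 cpm in mutant leaves, against 69.2 and 144 cpm in wild-type leaves, and was lower (-2.57, SE 0.37, adjusted p = 1.31e-04). Of 12 genes of reactive oxygen enzymes 4 were lower and 2 higher, among them the cytosolic peroxidase gene APX1, with 268 and 226 cpm in mutant leaves, against 711 and 674 cpm in wild-type leaves (-1.49, SE 0.11, adjusted p = 7.98e-07). RBOHD, an oxidase that makes superoxide, had 49.5 and 51.6 cpm in mutant leaves, against 22.1 and 20.3 cpm in wild-type leaves, and was higher (1.255, SE 0.15, adjusted p = 3.97e-05). Of 14 flavonoid genes 5 were higher and 4 lower, near the shares among all genes, with 2 to 5 in each direction over the alternatives. Their median turned from -0.34 to 0.25 without wild-type replicate 1. The calls of TTG1 and PAP1, regulators of the pathway, were lost in 7 and 1 alternatives. TT4, the chalcone synthase, had 50.3 and 64.8 cpm in mutant leaves, against 81.2 and 71.5 cpm in wild-type leaves (-0.41, SE 0.19, adjusted p = 0.0872). It was not called, although it was with DESeq2 (-0.47) and in 3 further alternatives.

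Stomatal channels and cell type markers were set apart. The guard cell list itself was lower with ABA than at control in wild-type leaves, by a median log2 fold change of -1.03. Its level with ABA therefore cannot be read as a share of cells. Of 11 genes of stomatal ion channels and pumps 2 were higher and 2 lower. ALMT12, an anion channel of closing stomata, had 1.17 and 1.60 cpm in mutant leaves, against 8.94 and 7.97 cpm in wild-type leaves (-2.64, SE 0.17, adjusted p = 3.94e-07). Of 10 guard cell markers, FAMA, MYB60, HT1 and AT1G22690 were higher and ALMT12 lower. FAMA, the factor that completes guard cell identity, had 30.6 and 32.6 cpm in mutant leaves, against 7.55 and 7.03 cpm in wild-type leaves (2.12, SE 0.15, adjusted p = 8.45e-07), while the channel genes KAT1 and SLAC1 were not called. The summed level of the guard cell list was 128 and 126 cpm in mutant leaves with ABA, against 73.8 and 85.97 cpm in wild-type leaves. Without ABA it was 138 and 119 cpm in mutant leaves, against 106 and 127 cpm in wild-type leaves. Of 6 mesophyll markers 3 were higher and 1 lower, of 6 epidermis markers 1 was higher and 3 lower, and of 7 vasculature markers 3 were higher and 4 lower. All 3 tested trichome markers were higher, a count that ran from 1 to 3 over the alternatives. RBCS1A, which marks mesophyll, was abundant in all 4 ABA libraries, as given above. Of 6 root markers 1 passed the low-count filter, and of 8 seed or pollen markers 2 did, FUS3 and LEC2, whose summed level was 0.407 and 0.8001 cpm in mutant leaves, against 0.178 and 0.365 cpm in wild-type leaves with ABA. The part of cell composition in the gene lists was not tested.

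Genotype differences at control were fewer and smaller. At control 5930 genes (26.5%) were called, 2702 (12.1%) higher and 3228 (14.4%) lower in mutant leaves, of which 806 (3.61%) differed by 1 or more on the log2 scale, 597 (2.67%) higher and 209 (0.935%) lower. With total-count scaling 4786 were higher and 1675 lower, and with only the libraries compared 1984 were called in all. These counts rest partly on the wild-type libraries: without wild-type control replicate 1 or 2 they were 3602 and 3113. Of the 12799 genes called with ABA, 4254 (33.2%) were also called at control, which is 71.7% of those called at control. Of these, 3488 had the same direction, 766 the opposite. Across the 22341 genes, which are not independent, the log2 fold changes with ABA and at control were correlated with a Pearson's r of 0.24 and a Spearman's rho of 0.32, and the 2 comparisons share no library. The difference of the genotype differences, ABA minus control, was called for 7851 genes (35.1%), of which it was positive in 4484 (20.1%) and negative in 3367 (15.1%). A positive value means that the mutant stood higher against the wild type with ABA than at control. Its size was 1 or more on the log2 scale in 3244 of them (14.5%), 1745 (7.81%) positive and 1499 (6.71%) negative. With RLE factors 3857 were positive and 4020 negative.

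The lists showed which of the functions differed already at control. None of the 14 LEA genes was called at control. Of their interactions 6 were called, all negative, and 8 were not called. In wild-type leaves the median log2 fold change of that list, ABA over control, was 8.85. Of the 16 dehydrin and cold genes 6 were higher and 1 lower at control. In 14 of the 16 the mutant stood lower against the wild type with ABA than at control, by a called interaction. Of the 8 PP2C genes 3 were higher and 1 lower at control, and 7 had a called interaction, all of them negative. Photosynthesis genes were lower in the mutant at control, where 24 of 34 photosystem genes were called lower and none higher, 14 of 18 Calvin cycle genes were lower, and 6 of 12 chlorophyll synthesis genes were lower. Over the alternatives 21 to 26 of the photosystem genes, 10 to 15 of the Calvin cycle genes and 1 to 6 of the chlorophyll synthesis genes were lower, the last being 2 without wild-type control replicate 2 or mutant control replicate 2. With ABA minus control, 22 of the 34, 16 of the 18 and 12 of the 12 had a called positive value. RBCS1B had 945 and 1032 cpm in mutant leaves at control, against 1660.3 and 1591 cpm in wild-type leaves (-0.72, SE 0.12, adjusted p = 0.00174), so that the genotypes stood in opposite order with and without ABA. Aquaporins were lower in the mutant in 14 of 16 genes at control, 8 to 14 over the alternatives, and in 9 with ABA. DELTA-TIP had 149 and 119.7 cpm in mutant leaves at control, against 283 and 258 cpm in wild-type leaves (-1.01, SE 0.15, adjusted p = 0.00119), again in opposite order to its levels with ABA. Of the 23 salicylic acid genes 6 were higher at control, and PR1 stood at 18.4 and 149 cpm in mutant and 61.4 and 29.9 cpm in wild-type leaves there. This control result rested on single libraries: 21 of the 23 were higher without mutant control replicate 1 and 4 without replicate 2, and the list's median was 0.82 with both, 1.36 without replicate 1 and -0.04 without replicate 2.

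**Figure D4:**
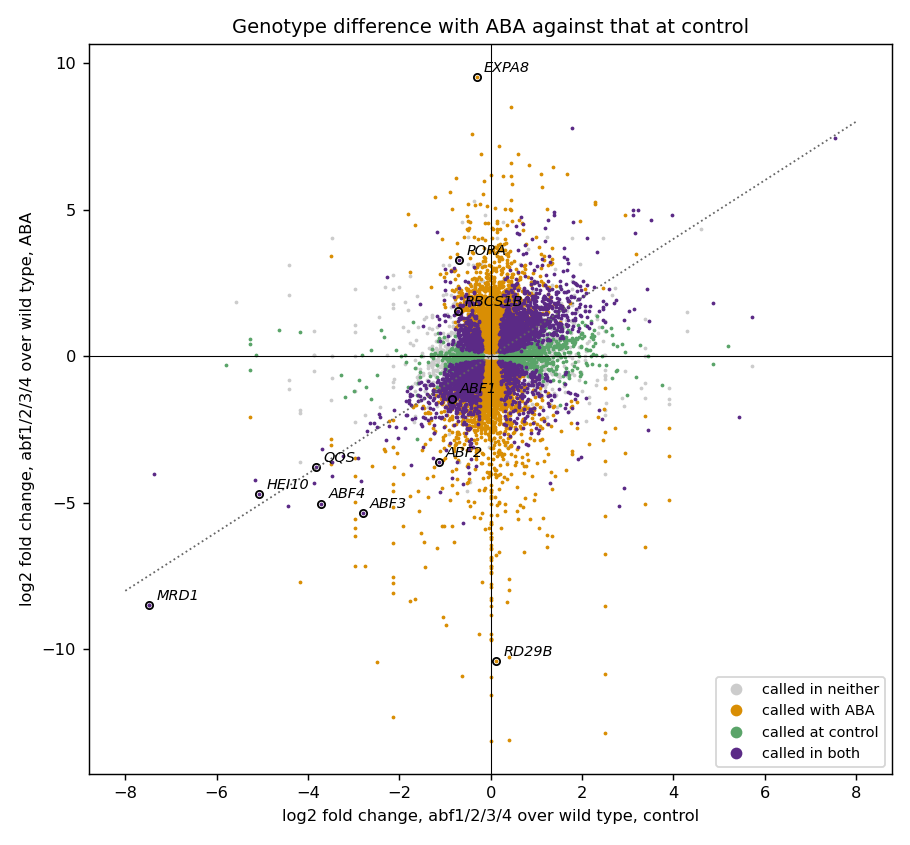
Log2 fold change of mutant over wild-type leaves with ABA (y axis) against the same at control (x axis), for 22341 genes, with named genes ringed. Colours give where a gene was called and the dotted line marks equal differences. RD29B lies at the foot and EXPA8 at the top near no difference at control, while ABF3, ABF4 and MRD1 are lower on both axes.

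The ABRE core was counted in a window from 250 bases before to 50 bases after the start of each gene, on both strands. ACGTG was present in 33.6% of the 5934 genes called lower, 23.1% of the 6865 called higher and 26.8% of all 22341 tested genes. The share was 42.6% among genes lower by 1 or more on the log2 scale, 51.0% among those lower by at least 2 and 60.2% of the 171 genes lower by at least 4. Among genes higher by at least 2 it was 23.2%. The palindrome CACGTG, which contains the core on both strands, was in 12.1% of genes called lower, 6.76% of those called higher and 8.38% of all. Grouped by the number of sites, 24.1% of genes with none, 30.8% with 1, 38.9% with 2 and 48.8% of the 330 genes with 3 or more were called lower, while the shares called higher were 32.3%, 27.8%, 23.4% and 19.1%. Of the 14 LEA genes 13 held the core, and each of the 13 held it at least 2 times. Of the 16 dehydrin and cold genes 12 held it, of the 8 PP2C genes 5, of the 4 AFP genes 4, of the 16 wax genes 5 and of the 16 aquaporin genes 1. These shares describe letters in a window, and genes were not matched for base composition.

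**Figure D5:**
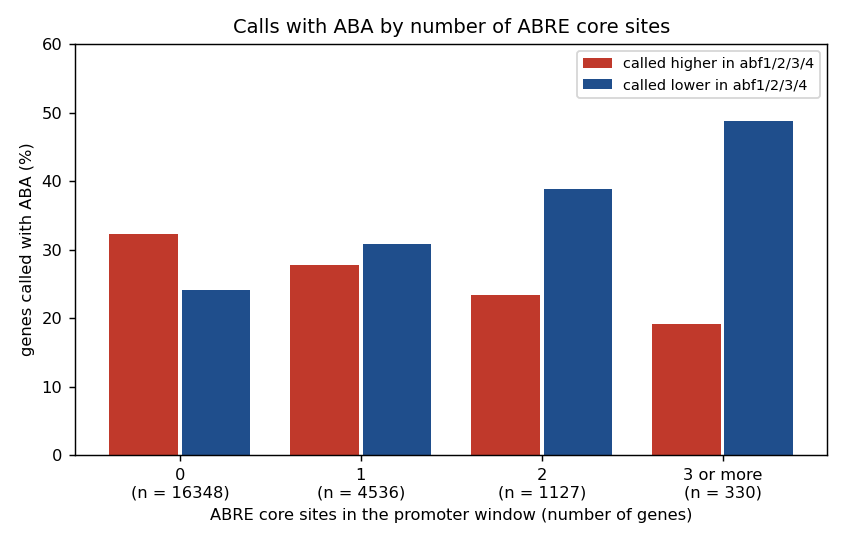
Share of genes called higher (red) or lower (blue) in mutant leaves with ABA, in percent, by the number of ABRE core sites in the promoter window, with the number of genes in parentheses. The share called lower runs from 24.1% with no site to 48.8% with 3 or more sites, and the share called higher from 32.3% to 19.1%.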

How the data were processed

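Whole-locus read counts of 36796 loci in 12 libraries were deposited by the authors as raw counts. Per the submitters' processing notes, Trim Galore 0.6.5, cutadapt, FastQC, SAMtools, featureCounts and DESeq2 1.26.0 were used with the TAIR10 build; the notes as held here give no roles or order. The aligner, annotation and strand setting are not given in the sources used here, so reads of overlapping or antisense loci cannot be told apart, and 12.3% of tested loci share over 25% of their exon length with another locus. Reads of near-identical copies may likewise be split.

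Counts were analysed with edgeR 4.0.16 in R 4.3.3 (filterByExpr with a minimum count of 10, TMM factors, quasi-likelihood test, Benjamini-Hochberg adjustment) in 1 fit of 6 group means over 12 libraries with 6 residual degrees of freedom. The biological coefficient of variation was 8.98%. Levels are cpm of the TMM-scaled total. For a group with at most 3 counts in both libraries, folds are bounds computed with 3 counts per library. They cover at most counting error. For LEA7, where mutant replicate 2 itself held 3 counts, the value is no bound. The scripts were tested on simulated data. Alternatives were other scalings, filters, thresholds, sample sets, DESeq2 1.42.0, thinning, a GC and length offset, overlapping loci left out, a replicate block and each library left out.

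The 44 functional lists and 7 marker lists, with 612 matched loci of which 568 were tested, were chosen with earlier results of these data known, as were the genes compared. Genes were named by a rule: the ABF genes, a fixed panel, the 12 largest differences in each direction among called genes without overlap and at least 10 cpm in the higher group, and up to 3 per list and direction at 5 cpm or more. KIN1, LTI30, LEA14, CBF3, MYB96, PAO, FAMA and the markers and genes of the closing section were named after their values were seen. Promoter windows and exon overlaps came from RefSeq's TAIR10.1 assembly.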

Additional observations from a re-analysis of the deposited data

Results flagged for a closer look

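The genotype difference with ABA was set against the same difference at control by an interaction term in edgeR's quasi-likelihood test, and 7851 of 22341 genes had an adjusted p under 0.05. Every value below is that term on the log2 scale, and a negative one means that mutant leaves stood lower against wild-type leaves with ABA than at control.

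Among the targeted genes the term was ABF3 at -2.56, ABF2 at -2.49, ABF4 at -1.33 and ABF1 at -0.60, so that the gap in each of the 4 was wider with ABA than at control.

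Among the ABA pathway and protective genes it was RD29B at -10.52, HAI1 at -7.53 and RAB18 at -5.23. It was GOLS2 at -6.41, P5CS1 at -3.50, CYP707A1 at -3.62, NCED3 at -1.32, HB7 at -5.36, CER1 at -3.54 and NYE1 at -1.75. For SAG29 it was -13.48, for EXPA8 9.82 and for XTH31 8.06, and these 3 fitted values depend on the prior count because a group was near 0. It was MYB60 at 3.17, RBCS1A at 0.74 and LHCB2.2 at 0.68.

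The genes below were called in opposite directions in the 2 conditions. Lower in the mutant with ABA and higher in it at control were ABI1 at -2.68, RD26 at -3.59, RD29A at -2.11, HB6 at -1.18, SAG13 at -3.45 and ABI5 at -2.80, and likewise MYB2 at -3.04, HSFC1 at -2.61, AFP3 at -3.17, HVA22D at -1.93 and CYP707A3 at -3.02. Higher in the mutant with ABA and lower in it at control were STP1 at 1.21, NRT1.1 at 1.34, GAPB at 0.90, GASA6 at 5.43, GAMMA-TIP at 1.12, DELTA-TIP at 2.42 and TIP2 at 1.21, and likewise PORB at 1.62, BRI1 at 1.103, GASA4 at 3.04, DIN10 at 1.62, RBCS1B at 2.25 and PORA at 3.97. The call of NRT1.1 with ABA was lost without wild-type replicate 2 (0.30). They include abundant messages of photosynthesis (RBCS1B, GAPB, PORB) and of the vacuolar membrane (DELTA-TIP, GAMMA-TIP, TIP2). The control side of each value rests on 2 mutant libraries that stood further apart than any other pair of leaf replicates, and the part of that spread was not tested.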

How the results depend on the processing

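Between mutant and wild-type leaves with ABA the number of genes called stayed within 1.5 times of 12799 under every alternative except a minimum absolute log2 fold change of 1, which left 4285 (2356 higher, 1929 lower). Leaving out 1 library at a time gave 10314 to 11369 calls, 5421 to 6087 higher and 4893 to 5282 lower. The share of calls that were higher was 53.6% with TMM, 47.8% with RLE, 47.2% with DESeq2 (5344 higher, 5974 lower), 47.0% with the GC and length offset (5986 higher, 6762 lower) and 63.5% with total-count scaling. That share was 49.1% with the 8 leaf libraries alone and 49.1% with only the libraries compared. At control the calls depended more on the processing. They were 1984 (929 higher, 1055 lower) with only the libraries compared, 2792 (1207 higher, 1585 lower) at an adjusted p under 0.01 and 806 (597 higher, 209 lower) with the minimum fold change. Total-count scaling gave 4786 higher and 1675 lower at control, and the 8 leaf libraries alone gave 2062 lower. Leaving out 1 library gave 3113 to 6155 calls at control, 1356 to 2976 higher and 1757 to 3179 lower. The difference between the conditions was called for 5085 genes (2914 positive, 2171 negative) at an adjusted p under 0.01 and for 3244 (1745 positive, 1499 negative) with the minimum fold change. Leaving out 1 library gave 6182 to 8421 such calls, 3480 to 4734 positive and 2663 to 3687 negative. In the 250 bases before the start alone, ACGTG was in 28.3% of genes called lower, 19.7% of those higher and 22.9% of all, and CACGTG in 9.91%, 5.77% and 7.05%. With the minimum fold change ACGTG was in 42.6% of lower genes, and CACGTG in 16.7% of lower and 5.26% of higher genes. Over 210 named genes, 28 changed their call or direction under some alternative: 25 lost the call, TT4 gained it, and 2 that were not called changed sign. These were LHCB2.2, at -0.0081 with DESeq2 and with RLE and between -0.055 and 0.18 with 1 library left out, and PYL6, between -3.12 and 2.27 with 1 library left out. The cause was not tested. With the replicate number as a block, 12730 genes were called with ABA (6849 higher, 5881 lower), 5916 at control and 7838 for the difference. Mutant and wild-type ABA libraries of the same number had deviations correlated at 0.07, so no effect shared by number was seen. That value cannot show whether the samples were collected in pairs. Genes at 3 counts or fewer per library have no measurable lower level at this depth.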

Other observations

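A set of 22 loci with a mean of at least 5 cpm in some leaf group differed between the genotypes by 2 or more on the log2 scale in the same direction with ABA and at control, 4 higher and 18 lower in the mutant, and 3 of them had a called interaction. ABF3 and ABF4 were among them. Some of these loci overlap and share reads: MRD1, AT1G07887 and HEI10 lie together on chromosome 1, with shares of 0.90, 1.0 and 0.41 of their exon bases inside another locus, and AT3G03815 lies beside ABF4 with a share of 0.76. Other lower loci lie close together on chromosome 2. AT2G01010, AT2G01021, AT2G03865 and AT2G03875 start at up to 0.01 Mb, and AT2G07674, AT2G07751 and AT2G07675 at 3.27 Mb. Whether the 22 differences are separate was not tested. HEI10, which acts in meiotic crossing over, had 0.813 and 0.640 cpm in mutant leaves with ABA, against 19.3 and 19.8 cpm in wild-type leaves (-4.71 with ABA, -5.07 at control). QQS, a gene known from starch and nitrogen allocation, had 3.59 and 2.72 cpm in mutant leaves with ABA, against 44.0 and 44.2 cpm in wild-type leaves (-3.77 and -3.82). AT1G75945 had 7.48 and 9.16 cpm in mutant leaves with ABA, against 0.0356 and 0.0486 cpm in wild-type leaves. HSP23.6-MITO, a mitochondrial small heat shock protein, had 11.4 and 7.40 cpm in mutant leaves with ABA, against 2.35 and 2.21 cpm in wild-type leaves (2.05 and 2.03).

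Reads on 4 ribosomal RNA loci made up 0.0252% and 0.0241% of counts in mutant leaves with ABA, against 0.0775% and 0.0808% in wild-type leaves with ABA. At control they made up 0.0291% and 0.0277% in mutant leaves, against 0.103% and 0.0828% in wild-type leaves. Their part in the other results was not tested.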
